A study of Mus musculus with 8 samples.

Results

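The secreted inhibitors of Wnt signalling described here were Sfrp1, Sfrp2, Sfrp4, Frzb, Dkk2, Dkk3, Wif1 and Sostdc1. They were taken by gene symbol, and all 8 were among the 31053 genes counted. The counts came from 8 single-cell libraries of dorsal skin of female BALB/c mice aged 14 to 16 weeks per the labels, 1 library per mouse. In 4 libraries the mice had received PBMCsec, the secretome of irradiated human peripheral blood mononuclear cells, by subcutaneous injection, and in the other 4 the vehicle. The study injected preformed scars and took the tissue either at the end of the injections or later, but the labels give neither the wounding, the time point nor the vehicle solution of a library. An effect of the time point can therefore not be told apart from differences between single libraries.

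Wnt ligands are secreted proteins that bind a Frizzled receptor and the coreceptor Lrp5 or Lrp6, which keeps beta-catenin from being degraded and lets it act on target genes with TCF/LEF factors. Secreted inhibitors act outside the cell. Sfrp1, Sfrp2, Sfrp4 and Frzb carry a Frizzled-like domain and bind Wnts, Wif1 binds Wnts through a different domain, and Dkk2 and Sostdc1 bind the Lrp coreceptors (Sostdc1 also binds BMPs). Dkk3 is the divergent member of the Dickkopf family and its part in Wnt signalling is less clear. In skin, Wnt signals drive hair follicle formation and growth, and dermal fibroblasts respond to them in wounds and scars.

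After the study's limits on genes, unique molecular identifiers (UMIs) and mitochondrial share, 6150 of 26231 barcodes remained, 151 to 1659 per library. The libraries held 14753926 to 37880651 UMIs in all, and the remaining cells had a median of 6156 to 9521 UMIs per library. Vehicle libraries 1 and 2 were the smallest. Across libraries, 78 barcode sequences occurred more than once, 4 of them among the kept cells. Fibroblasts (FBs) made up 1546 cells (27 to 532 per library) and keratinocytes with hair follicle cells (KCs and HFs) 2857 cells. The latter include 241 contractile follicle-like cells, whose 10 leading genes held 2 smooth muscle and 0 epithelial markers. They count in the shares of the next paragraph and as a subtype, but were left out of the KC and HF sums compared between treatments. The 8 FB clusters carried 4 to 7 of the 7 FB markers and the 13 KC and HF clusters 3 to 10 of the 12 epithelial markers. Clusters were called by a subtype name followed by "-like" where markers allowed it, and by leading genes elsewhere. The 8 inhibitors and the other listed Wnt genes were not used for clustering, but the clusters came from the same cells, so levels between them are a description. Levels are a gene's UMIs as a share of all UMIs of a library's cells of that subtype, scaled as CPM and given as mean ± SD over libraries with at least 10 such cells.

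The inhibitors fell into a dermal and an epithelial set. FBs held 98.7% of all Sfrp2 UMIs, 98.6% of those of Sfrp4 and of Dkk2, and 83.7% of those of Wif1. KCs and HFs held 95.3% of Sostdc1 and 84.3% of Sfrp1 UMIs. Dkk3 was shared, with 57.9% of its UMIs in FBs and 39.9% in KCs and HFs. Its level was higher in FBs, at 95.1 CPM with libraries pooled and in 40.4% of cells. In KCs and HFs, which were more cells, Dkk3 was at 31.8 CPM and in 16.9% of cells. Frzb was rare, with 41 of its 45 UMIs in FBs. A UMI of Sfrp2 was found in 55.1% of FBs (95% exact Clopper-Pearson interval 52.6% to 57.6%) and of Sfrp4 in 56.9%, against 1.58% and 0.84% of KCs and HFs. Sfrp1 was found in 48.2% of KCs and HFs and 27.1% of FBs, and Sostdc1 in 29.6% and 2.59%. Dkk2 was found in 21.0% of FBs and 0.28% of KCs and HFs. No UMI of Frzb was found in the 2857 KCs and HFs, and a limit of 3 counts allows a UMI in up to 0.105% of such cells, which limits detection at this depth and not expression. Cells of the study's class of T and B cells (TCs) were taken here as cells that show the background of free RNA. Their clusters carried T cell markers, and none carried the B cell markers Cd79a or Ms4a1. The TCs had a UMI of a given inhibitor in 0.13% to 0.80% of 751 cells. The median depth was 3315 UMIs in TCs, 8746 in FBs and 10030 in KCs and HFs. When cells were thinned to 2000 UMIs each, Sfrp2 stayed at 41.4% of FBs and 0.15% of TCs, while the 0.84% of KCs and HFs with Sfrp4 fell to 0.075%, below the TC share of 0.31%. Intervals and limits cover counting error only.

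**Figure D1:**
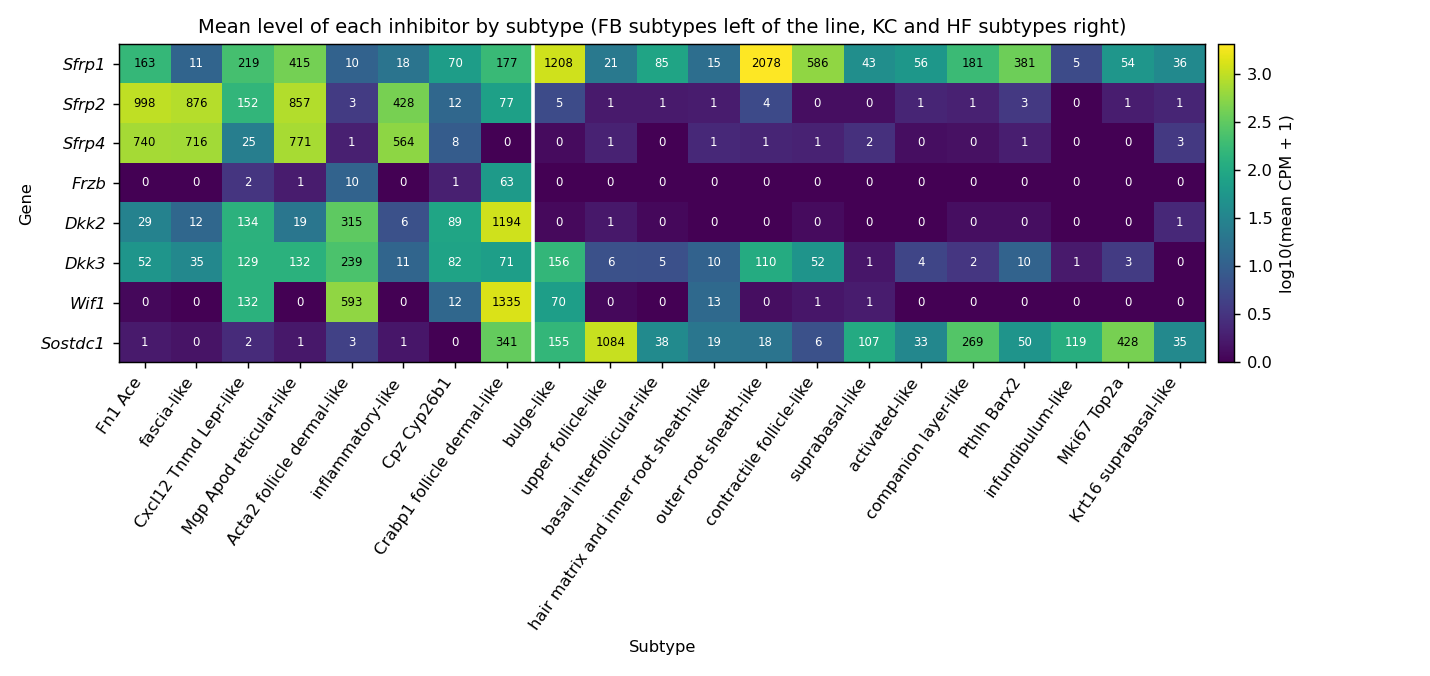
Mean level over libraries of each inhibitor (rows) in the 8 FB and 13 KC and HF subtypes (columns, split by a white line), with the CPM printed in each field and the colour on a log10(CPM + 1) scale. Sfrp2 and Sfrp4 share their high columns among FBs, Dkk2 and Wif1 peak at 1194 and 1335 CPM in Crabp1 follicle dermal-like FBs, Sfrp1 peaks at 2078 CPM in outer root sheath-like cells and Sostdc1 at 1084 CPM in upper follicle-like cells.

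Sfrp1, a Wnt-binding inhibitor, was highest in the hair follicle. In outer root sheath-like cells, which carried Lgr5, Id4 and Cxcl14, it reached 2508, 2105 and 1959 CPM in PBMCsec libraries 1, 3 and 4 and 1618 and 2201 CPM in vehicle libraries 3 and 4 (2078 ± 327 CPM, n = 5). A UMI was found in 97.2% of these 254 cells. They did not carry Barx2 or Pdzrn3 of the same marker list, and they also carried Tagln, Acta2 and Myl9 of the contractile follicle list. Bulge-like cells came next with 1208 ± 655 CPM (n = 6) and spanned 224 to 2110 CPM. They carried Lhx2, Grem1, Npnt, Cd34 and Postn, but also Lgr5, Id4 and Cxcl14, so the latter do not set these subtypes apart. Outer root sheath-like cells were above bulge-like cells in 4 of the 5 libraries that held both, and bulge-like cells were above contractile follicle-like cells (586 ± 113 CPM, n = 5) in 5 of 5. Among FBs, Sfrp1 was highest in Mgp Apod reticular-like cells at 415 ± 455 CPM (n = 6), an SD larger than the mean.

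Sfrp2 and Sfrp4, which also bind Wnts, had nearly the same distribution. Sfrp2 was highest in the Fn1 Ace FBs, at 515, 153, 1808 and 1176 CPM in PBMCsec libraries 1 to 4 and at 550, 839 and 1948 CPM in vehicle libraries 1, 3 and 4 (998 ± 679 CPM, n = 7). PBMCsec library 2 was lowest, PBMCsec library 3 and vehicle library 4 were highest, and the treatment groups overlapped. Fascia-like FBs had 876 ± 631 CPM (n = 5) and Mgp Apod reticular-like FBs 857 ± 493 CPM (n = 6). Fn1 Ace FBs were above fascia-like FBs in 5 of 5 libraries, whereas fascia-like and Mgp Apod reticular-like FBs changed order, with the former higher in 2 of 5.

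Sfrp4 was at 771 ± 547 CPM in Mgp Apod reticular-like FBs (n = 6), 740 ± 362 CPM in Fn1 Ace FBs (n = 7) and 716 ± 359 CPM in fascia-like FBs (n = 5). The leading pair did not differ in order beyond the libraries, with Mgp Apod reticular-like FBs higher in 3 of 6. At a mitochondrial limit of 10%, in place of the study's 5%, a joint cluster carried the markers of Mgp Apod reticular-like and of Cxcl12 Tnmd Lepr-like FBs. Fn1 Ace FBs led at that limit with 846 CPM, against 529 CPM in the joint cluster, so the latter is no level of Mgp Apod reticular-like FBs alone. Inflammatory-like FBs had 564 ± 382 CPM, and Cxcl12 Tnmd Lepr-like FBs only 25.2 ± 16.0 CPM. Both genes were low in the FBs of the hair follicle described next. In Acta2 follicle dermal-like FBs, Sfrp2 was at 2.75 CPM and Sfrp4 was found in 0.82% of cells, and in Crabp1 follicle dermal-like FBs, Sfrp2 was at 76.6 CPM and Sfrp4 was found in 1.35% of cells. Across the 21 subtypes, log levels of Sfrp2 and Sfrp4 correlated with r = 0.94 (Pearson), a description over points that share libraries and depth. A UMI of both was found in 74.6% of Fn1 Ace FBs, 76.5% of fascia-like FBs and 69.9% of inflammatory-like FBs.

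Dkk2, which binds the Lrp coreceptors, and Wif1 were highest in FBs of the hair follicle. Crabp1 follicle dermal-like FBs carried Crabp1, Corin, Alx4 and Hhip, and Acta2 follicle dermal-like FBs carried Acta2, Tagln, Ednrb and Col11a1. Dkk2 was at 1302 and 1274 CPM in the Crabp1 cells of PBMCsec libraries 1 and 3 and at 1004 CPM in those of vehicle library 3. These 3 libraries were close together. Only they held at least 10 of the 74 cells. Their mean of 1194 CPM became 866 CPM with a minimum of 5 cells and 789 CPM at the 10% mitochondrial limit. Acta2 follicle dermal-like FBs had 315 ± 155 CPM of Dkk2 (n = 4) and were above Cxcl12 Tnmd Lepr-like FBs (134 ± 71.3 CPM, n = 6) in 4 of 4 libraries.

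Wif1 was at 1264, 710 and 2031 CPM in the Crabp1 cells of the same 3 libraries, with vehicle library 3 highest, and at 593 ± 260 CPM in Acta2 follicle dermal-like FBs (n = 4). The mean of 1335 CPM in Crabp1 cells became 2264 CPM with a minimum of 5 cells and 3029 CPM at the 10% mitochondrial limit. For both genes the Crabp1 cells were above the Acta2 cells in 2 of the 2 libraries that held both. The pair differed in the epithelium. Wif1 was measured in bulge-like cells at 70.5 ± 70.5 CPM (n = 6; 21.4% of 345 cells), whereas Dkk2 stayed at or below 1.41 CPM in all KC and HF subtypes. Both were found together in 64.9% of Crabp1 and 34.4% of Acta2 follicle dermal-like FBs, and their log levels correlated with r = 0.86 over the 21 subtypes. Frzb, a relative of the Sfrps, had 27 of its 45 UMIs in the Crabp1 cells, in 16 of 74 cells.

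Promoter sequence (RefSeq, GRCm38.p6) was at hand for 4 of the 8 genes: Sfrp2, Frzb, Dkk2 and Wif1. The 250 bases before the RefSeq start were searched on both strands for CTTTG, the core of the TCF/LEF motif, and for TATAAA, the TATA box. CTTTG was in 48.6% and TATAAA in 12.4% of 32851 promoters. Dkk2 and Wif1, which share the follicle dermal pattern, are shown with Sfrp2, an FB inhibitor that was low in those cells. Capitals mark a match to either motif, 5′ to 3′ on the gene's strand, at chr3:132085042-132085291 (Dkk2, plus strand), chr10:121033754-121033959 (Wif1, plus strand, ending before the first annotated exon) and chr3:83766071-83766320 (Sfrp2, plus strand).
Dkk2: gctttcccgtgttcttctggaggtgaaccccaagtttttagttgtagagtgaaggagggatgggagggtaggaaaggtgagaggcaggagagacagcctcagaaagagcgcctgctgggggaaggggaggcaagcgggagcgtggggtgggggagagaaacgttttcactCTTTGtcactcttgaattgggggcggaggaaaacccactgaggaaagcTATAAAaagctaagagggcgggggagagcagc
Wif1: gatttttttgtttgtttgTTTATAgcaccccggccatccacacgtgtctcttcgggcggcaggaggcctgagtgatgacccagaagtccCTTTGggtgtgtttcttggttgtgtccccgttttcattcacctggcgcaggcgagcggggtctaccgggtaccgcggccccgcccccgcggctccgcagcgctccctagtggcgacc
Sfrp2: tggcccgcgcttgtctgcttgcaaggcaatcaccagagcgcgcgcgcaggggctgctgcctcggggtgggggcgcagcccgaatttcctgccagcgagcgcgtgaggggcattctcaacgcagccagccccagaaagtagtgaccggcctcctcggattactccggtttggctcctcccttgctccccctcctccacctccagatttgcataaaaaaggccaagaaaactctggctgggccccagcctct
Dkk2 and Wif1 each held 1 match to CTTTG and 1 to TATAAA (in Wif1 on the opposite strand), and Sfrp2 held none. Frzb held 1 CTTTG and no TATAAA, but only 21 bases of its window lay before the annotated start of the gene. The CTTTG was not among those 21 bases. All these matches are of letters in the window and say nothing about binding.

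Dkk3 was spread over dermal and follicular cells. It was highest in Acta2 follicle dermal-like FBs at 122 and 202 CPM in PBMCsec libraries 3 and 4 and 330 and 303 CPM in vehicle libraries 3 and 4 (239 ± 95.7 CPM, n = 4). Both vehicle libraries were above both PBMCsec libraries, which was not tested. Bulge-like cells followed with 156 ± 31.0 CPM (n = 6; 58.6% of cells). Acta2 follicle dermal-like FBs were above them in 3 of 4 libraries, by 86.0 ± 124 CPM, a difference within its spread. Next were Mgp Apod reticular-like FBs (132 ± 40.6 CPM), Cxcl12 Tnmd Lepr-like FBs (129 ± 41.6 CPM) and outer root sheath-like cells (110 ± 47.4 CPM). The Mgp Apod and Cxcl12 FBs changed order between libraries, 3 of 6 each way. Dkk3 was found together with Sfrp1 in 50.8% of outer root sheath-like and 47.5% of bulge-like cells, and together with Dkk2 in 51.6% of Acta2 follicle dermal-like FBs.

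Sostdc1 was highest in another group of follicle cells. In upper follicle-like cells, which carried Fst and Aldh3a1, it was at 831, 1177 and 1041 CPM in PBMCsec libraries 1, 3 and 4 and at 974, 1288 and 1192 CPM in vehicle libraries 2, 3 and 4. The groups overlapped and the spread was small for this set of genes (1084 ± 167 CPM, n = 6; 91.8% of 318 cells). It was above the dividing Mki67 Top2a cells (428 ± 274 CPM, n = 5) in 5 of 5 libraries. At the 10% mitochondrial limit, however, Crabp1 follicle dermal-like FBs led with 1435 CPM (n = 5), and upper follicle-like cells had 915 CPM (n = 8). At the study's 5% limit, the order below upper follicle-like cells was not firm. Mki67 Top2a cells were above Crabp1 follicle dermal-like FBs in 1 of 3 libraries. Crabp1 follicle dermal-like FBs had 341 ± 278 CPM (n = 3) and companion layer-like cells 269 ± 89.3 CPM (n = 4). A UMI was found in 29.7% of the Crabp1 cells and in at most 1.64% of the cells of the other 7 FB subtypes.

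The subtypes with the fewest inhibitors were epithelial. At least 1 of the 8 was found in 98.2% of Fn1 Ace FBs and 98.8% of outer root sheath-like cells, but in 37.5% of infundibulum-like and 11.8% of hair matrix and inner root sheath-like cells. At least 3 were found in 60.8% of Crabp1 follicle dermal-like FBs. The genes most like each inhibitor over the 21 subtypes, among 4158 genes that reached 100 CPM in some subtype, were Ace, Ifi207 and Fap for Sfrp2 (r = 0.97 to 0.98) and Islr2, Plac8 and Ptgis for Sfrp4 (r = 0.97 to 0.99). Shox2, Cacna1g and Snai1 were most like Dkk2 (r = 0.97 to 0.98) and Spp1, Cck and Coch most like Wif1 (r = 0.94 for each). For Dkk3 these were Col12a1, Col4a2 and Bgn (r = 0.90 to 0.93), for Sfrp1 Tnc, Col18a1 and Auts2 (r = 0.81 to 0.84) and for Sostdc1 Egr2, Srcin1 and Efnb2 (r = 0.78 to 0.81). Frzb was too low to be ranked. Subtypes share libraries, so these values are a description.

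The treatment question was whether PBMCsec changed the inhibitors in FBs or in KCs and HFs. Counts were summed per library over each class, and PBMCsec was tested against vehicle by edgeR's quasi-likelihood test with Benjamini-Hochberg adjustment over all genes tested. No inhibitor passed an adjusted p of 0.05 in either class (adjusted p = 0.9998 in FBs and 0.9999 in KCs and HFs for each). In FBs 7 of the 8 were tested, and the background was 0% of 9568 genes called. DESeq2 also called 0. At an unadjusted p below 0.05, 0.941% of genes were lower and 1% higher by edgeR, and 1 inhibitor, Sfrp1, was among them. The groups did not overlap in 0.836% of genes with PBMCsec lower and in 0.721% with PBMCsec higher, and in none of the 7 inhibitors. The fold change was above 0 in 5 of the 7, and in 49.5% of all genes tested. In the class sums below, CPM were scaled by the trimmed mean of M values (TMM).

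**Figure D2:**
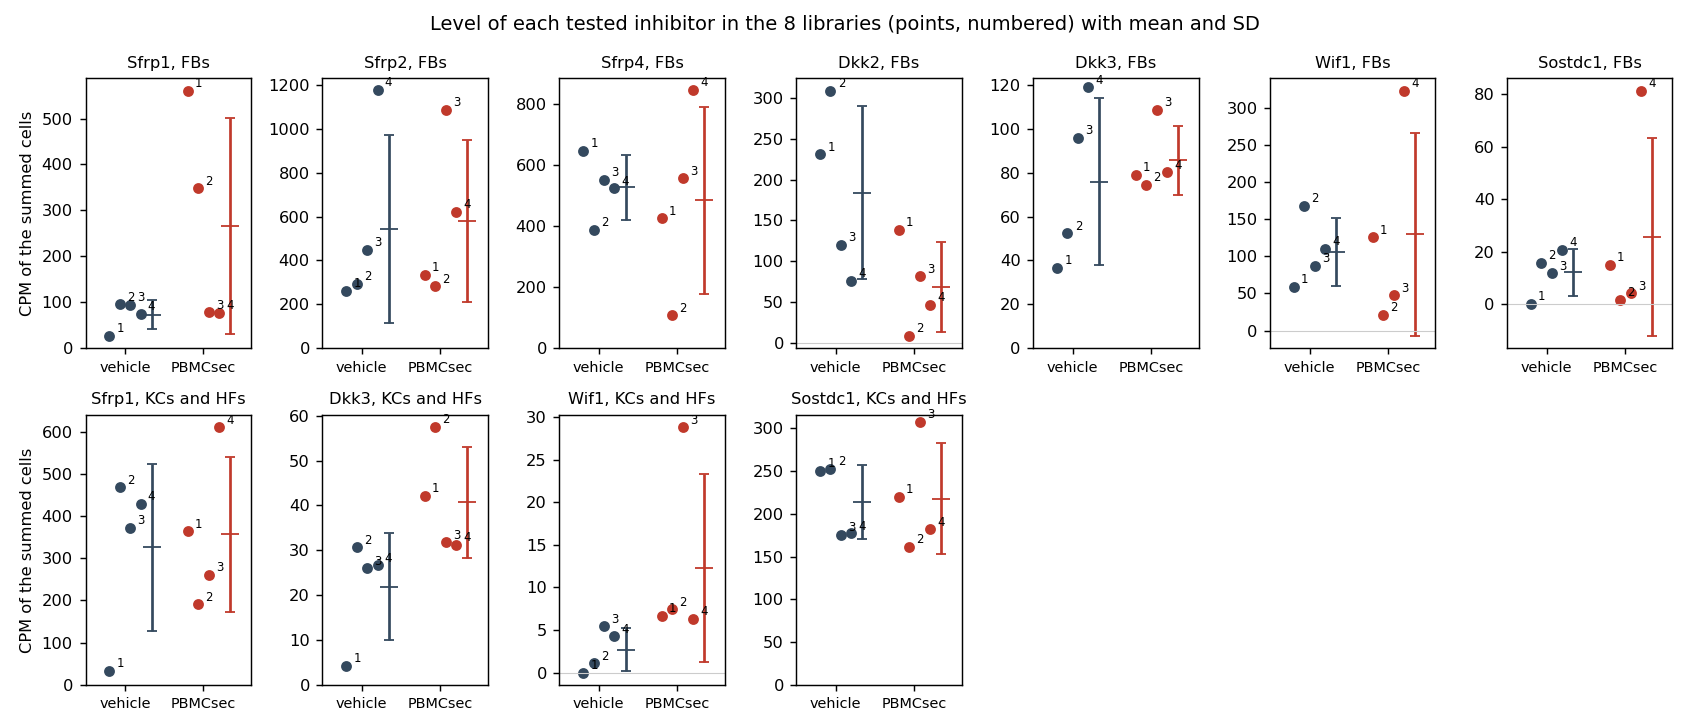
TMM-scaled CPM of the tested inhibitors in each library's summed FBs and summed KCs and HFs (points with library numbers, linear axes that differ between panels), by treatment group, with the mean and SD of each group as a bar. Sfrp1 in FBs is high in PBMCsec libraries 1 (561 CPM) and 2 (348 CPM) and between 25.7 and 94.3 CPM in the other 6 libraries.

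In FBs, Sfrp1 was at 561, 348, 76.9 and 76.1 CPM in PBMCsec libraries 1 to 4 and at 25.7, 94.3, 93.5 and 74.0 CPM in vehicle libraries 1 to 4. PBMCsec libraries 1 and 2 stood above all others, and PBMCsec libraries 3 and 4 lay within the vehicle range. The log2 fold change was 1.84 ± 0.62 (SE; 95% interval 0.49 to 3.19; adjusted p = 0.9998). Without PBMCsec library 1 it was 1.14. Among the libraries numbered 3 and 4 alone it was −0.13. Sfrp1 was found in 51.8% of FBs of PBMCsec library 1 (99 of 191) and 60% of PBMCsec library 2 (42 of 70), against 14.8% to 22.3% in the other libraries. These shares were not taken at equal depth. The median depth of the FBs was 9297 to 10603 UMIs in the PBMCsec libraries and 4987 to 9128 UMIs in the vehicle libraries, without overlap.

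The 12 KC and HF markers, summed in the same FBs, came to 187, 171, 254 and 415 CPM in PBMCsec libraries 1 to 4 and to 139, 207, 527 and 231 CPM in the vehicle libraries, and none of the 12 was at 0 in PBMCsec library 1 or 2. Vehicle library 3 and PBMCsec library 4 had the highest sums. In PBMCsec library 1, a Krt14 UMI was found in 30.3% of FBs with Sfrp1 and in 28.3% of the other FBs, and in PBMCsec library 2 in 33.3% and 25%. The part of epithelial RNA in the Sfrp1 values was not tested.

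The same libraries had high Sfrp1 within FB subtypes. In Fn1 Ace FBs, Sfrp1 was at 512 and 422 CPM in PBMCsec libraries 1 and 2, 25.3 and 42.9 CPM in PBMCsec libraries 3 and 4, and 38.4, 56.5 and 41.6 CPM in vehicle libraries 1, 3 and 4. The fit within this subtype gave a log2 fold change of 2.38 ± 0.95 (adjusted p = 0.999975), where 1.53% of 6145 genes were higher at an unadjusted p below 0.05 and 0% were called. Without the filter on low counts the same gene reached 2.37 with an adjusted p of 0.0048 by edgeR, in a fit that called 0.209% of 14812 genes higher (31 genes) and 7 genes lower, whereas the filtered fit called 0. In Mgp Apod reticular-like FBs, Sfrp1 was at 1325, 236, 115 and 296 CPM in PBMCsec libraries 1 to 4 and at 364 and 156 CPM in vehicle libraries 3 and 4, so only PBMCsec library 1 stood out.

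In Cxcl12 Tnmd Lepr-like FBs, Sfrp1 was at 402, 424 and 325 CPM in PBMCsec libraries 1 to 3, against 44.0 CPM in PBMCsec library 4 and 84.3 and 35.4 CPM in vehicle libraries 3 and 4. Sfrp2, otherwise low in these cells, was at 406 and 481 CPM in PBMCsec libraries 1 and 2, 3.14 and 19.6 CPM in PBMCsec libraries 3 and 4, and 4.29 and 0 CPM in vehicle libraries 3 and 4. These values rest on 25, 20, 69, 20, 83 and 21 cells in that order. Vehicle libraries 1 and 2 had fewer than 10 such cells, so the subtype had too few libraries for a fit.

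**Figure D3:**
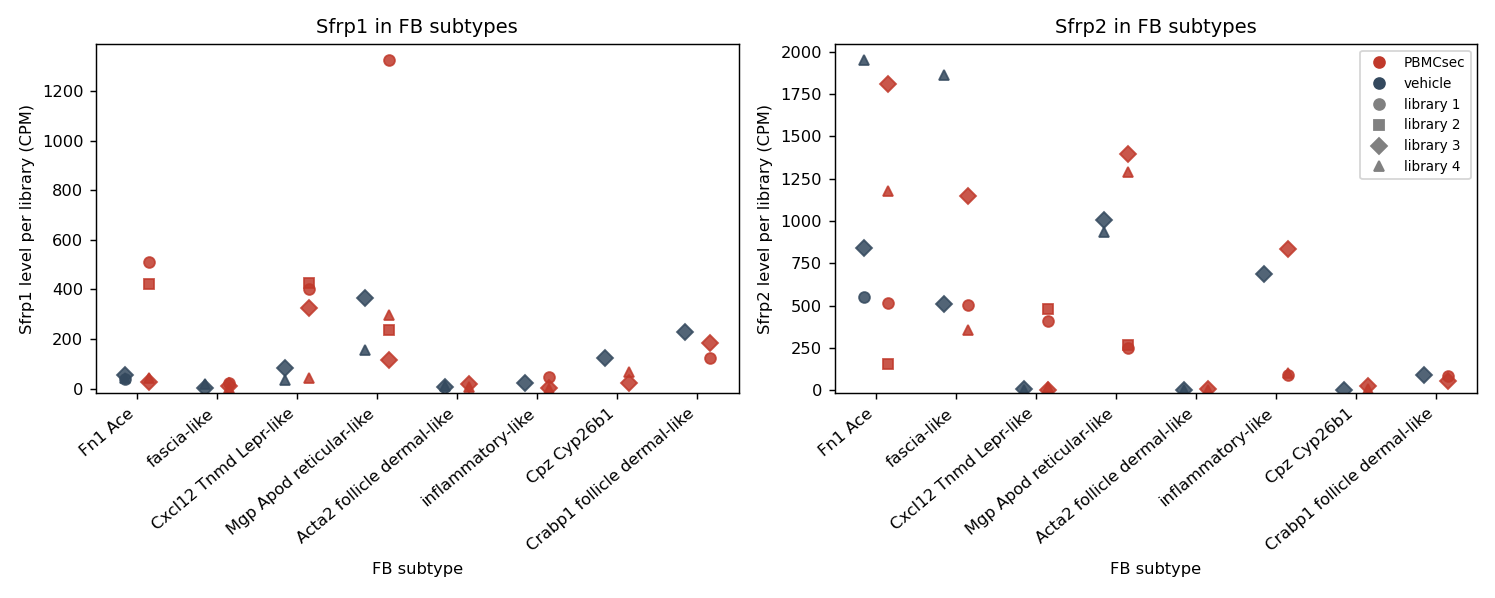
Sfrp1 (left) and Sfrp2 (right) in FB subtypes by library (points, CPM on a linear axis), with colour for PBMCsec or vehicle and shape for the library number, for libraries with at least 10 cells. PBMCsec libraries 1 and 2 are the highest for Sfrp1 in Fn1 Ace FBs (512 and 422 CPM) and for Sfrp2 in Cxcl12 Tnmd Lepr-like FBs (406 and 481 CPM), while they are the lowest for Sfrp2 in Mgp Apod reticular-like FBs (251 and 269 CPM).

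Dkk2 in FBs was at 138, 8.3, 81.4 and 46.3 CPM in PBMCsec libraries 1 to 4 and at 231, 309, 120 and 76.0 CPM in the vehicle libraries. PBMCsec library 2 was far below the rest, and the groups overlapped. The log2 fold change was −1.29 ± 0.59 (95% interval −2.58 to 0.01; adjusted p = 0.9998). The follicle dermal-like cells that held most Dkk2 were 17.3%, 2.86%, 9.40% and 15.7% of FBs in the PBMCsec libraries and 9.68%, 25.9%, 16.0% and 10.1% in the vehicle libraries. With those cells left out the fold change was −1.87, and it was −0.57 at a mitochondrial limit of 10%. Leaving out 1 library moved it between −1.83 (without PBMCsec library 1) and −0.91.

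The other FB inhibitors differed by less than the spread between libraries. Sfrp2 was at 334, 282, 1087 and 622 CPM after PBMCsec and 260, 293, 449 and 1178 CPM after vehicle, with a log2 fold change of 0.08 ± 0.51 (95% interval −1.03 to 1.18). Sfrp4 was at 426, 108, 557 and 846 CPM against 646, 388, 552 and 523 CPM (−0.12 ± 0.44, 95% interval −1.09 to 0.84). In both, the libraries of each group were interleaved. Wif1 ranged from 21.6 to 323 CPM after PBMCsec and from 58.7 to 168 CPM after vehicle (0.34 ± 0.63, 95% interval −1.03 to 1.71). Dkk3 gave 0.06 ± 0.30 (95% interval −0.59 to 0.71). Sostdc1 gave 0.91 ± 0.92 (95% interval −1.08 to 2.90) with PBMCsec library 4 at 81.4 CPM, and −0.89 without that library. Frzb had 25 UMIs after PBMCsec and 16 after vehicle and was too low to be tested.

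In KCs and HFs, 4 inhibitors passed the filter on low counts, against a background of 0% of 10667 genes called by edgeR and 0 by DESeq2. At an unadjusted p below 0.05, 1.1% of genes were higher and 0.497% lower, and 1 inhibitor, Wif1, was higher. The groups did not overlap in 0.666% of genes with PBMCsec higher, Wif1 and Dkk3 among them, and in 0.722% with PBMCsec lower. The fold change was above 0 in all 4 tested inhibitors, and in 50.5% of all genes tested. Wif1 was at 6.7, 7.4, 28.8 and 6.3 CPM after PBMCsec and 0, 1.1, 5.4 and 4.2 CPM after vehicle. PBMCsec library 3 was far above the others, and the groups did not overlap. The log2 fold change was 1.71 ± 0.61 (95% interval 0.38 to 3.04; adjusted p = 0.9999), and without PBMCsec library 3 it was 0.74.

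Most epithelial Wif1 lay in bulge-like cells. They held 16 of 16, 4 of 4, 146 of 157 and 19 of 23 Wif1 UMIs in PBMCsec libraries 1 to 4, and 1 of 1, 21 of 46 and 17 of 18 in vehicle libraries 2 to 4, while vehicle library 1 had no bulge-like cell. Without the contractile follicle-like cells, bulge-like cells were 9.91% to 20% of KCs and HFs after PBMCsec and 0% to 12.6% after vehicle. Within bulge-like cells Wif1 was at 47.9, 34.4, 213 and 56.1 CPM after PBMCsec and 27.01 and 44.6 CPM in vehicle libraries 3 and 4, so the groups overlapped there. The 7 FB markers summed to 89.4 to 159 CPM after PBMCsec and 26.6 to 338 CPM after vehicle in the same KCs and HFs, and their part in the Wif1 values was not tested.

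Dkk3 in KCs and HFs was at 42.2, 57.5, 31.7 and 31.3 CPM after PBMCsec and 4.2, 30.6, 26.0 and 26.7 CPM after vehicle. Every PBMCsec library was above every vehicle library, with a narrow gap and vehicle library 1 far below. The log2 fold change was 0.65 ± 0.32 (95% interval −0.05 to 1.35; adjusted p = 0.9999), and at a mitochondrial limit of 10% it was 0.15. Sfrp1 was at 364, 191, 261 and 611 CPM after PBMCsec and 33.9, 468, 372 and 430 CPM after vehicle, with vehicle library 1 far below the rest (0.10 ± 0.55, 95% interval −1.11 to 1.31). The sum of vehicle library 1 held 23 cells, none of them bulge-like or outer root sheath-like, the epithelial subtypes with the most Sfrp1 and Dkk3. The part of this in its low values was not tested. Sostdc1 ranged from 161 to 308 CPM after PBMCsec and from 175 to 253 CPM after vehicle (0.05 ± 0.24, 95% interval −0.47 to 0.57). Within upper follicle-like cells Sostdc1 gave a log2 fold change of −0.17 ± 0.21, where 0% of 5785 genes were called. Sfrp2, Sfrp4, Dkk2 and Frzb were too low in this class to be tested.

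**Figure D4:**
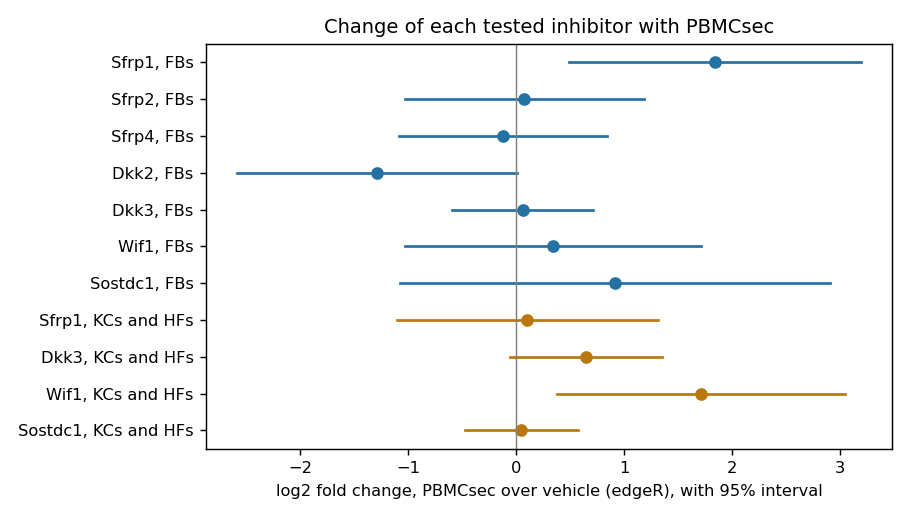
Log2 fold change of PBMCsec against vehicle for each tested inhibitor in FBs and in KCs and HFs (points) with 95% intervals (bars). The intervals of Sfrp1 in FBs (0.49 to 3.19) and of Wif1 in KCs and HFs (0.38 to 3.04) lie above 0, before adjustment over all genes, and the others include 0.

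The effect of PBMCsec in FBs was compared with that in KCs and HFs as an interaction, with library as a block. Of 11868 genes 0% were called, and 1.07% and 1.63% had an unadjusted p below 0.05 with the effect higher and lower in FBs. Neither Sfrp1 (1.32 ± 0.80), Dkk3 (−0.65 ± 0.35) nor Wif1 (−1.39 ± 1.05) was among them. These values moved with single libraries. Without PBMCsec library 4 the difference was 2.06 for Sfrp1 and −2.51 for Wif1, and for Dkk3 it was −0.91 without PBMCsec library 3 and −0.84 without vehicle library 2, each with an unadjusted p below 0.05 (adjusted p by edgeR 0.912 for Sfrp1, 0.949 for Wif1 and 1 for Dkk3). At that unadjusted threshold, the fit without PBMCsec library 4 had 205 genes higher and 271 lower of 11757. Lower genes were 221 of 11640 without PBMCsec library 3 and 226 of 12169 without vehicle library 2. Of the 21 subtype shares, none passed the test between treatments (exact permutation test, two-sided, lowest p = 0.143, adjusted p = 1 for each). With 4 libraries against 4 the smallest p possible is 0.0286, or 0.6 for a single share after adjustment over the 21, so this test could not have called a single share.

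Of the 70 other Wnt pathway genes listed by role, 38 were tested in FBs and 47 in KCs and HFs, and edgeR called 0 in both (the background being 0% in each). In FBs 13 had a fold change above 0 and 25 below, with a median of −0.09 against −0.0028 over all genes, and the 7 tested inhibitors had a median of 0.08. In KCs and HFs 12 were above and 35 below 0, with a median of −0.12 against 0.0024 over all genes, and the 4 tested inhibitors had a median of 0.38. At an unadjusted p below 0.05 there were 4 in FBs, 2 higher and 2 lower of 38, against the 1% and 0.941% of all genes, and 0 of 47 in KCs and HFs, against 1.1% and 0.497%. By role, these were the ligand Wnt11 (0.93 ± 0.31), the receptor Fzd8 (−0.68 ± 0.30), the transcription factor Tcf7l2 (−0.49 ± 0.19) and the target Myc (0.93 ± 0.38), each with an adjusted p of 0.9998.

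Within each role, the genes with the most UMIs in FBs were the inhibitors Tpbg and Kremen1, the ligands Wnt2 and Wnt5a, the secretion factor Wls with the agonist Rspo1, the receptors Lrp6 and Ryk, Ctnnb1 (beta-catenin) with Tcf7l2, and the targets Myc and Ccnd1. In KCs and HFs they were Shisa2 and Tpbg, Wnt4 and Wnt3, Wls and Porcn, Ryk and Fzd2, Ctnnb1 and Tcf7l2, and Ccnd1 and Myc. Tcf7l2 was at 104, 121, 87.0 and 104 CPM in FBs of PBMCsec libraries 1 to 4 and at 161, 141, 135 and 146 CPM in those of the vehicle libraries. All PBMCsec libraries were lower, as in 0.836% of the genes tested in FBs. Of the common readouts of Wnt activity, Axin2 was at 18.8 ± 5.32 CPM in FBs after PBMCsec and 15.4 ± 7.02 CPM after vehicle (0.63 ± 0.37). Across subtypes, Axin2 was highest in the Cpz Cyp26b1 FBs (63.1 CPM, libraries pooled). In the same pooled cells Dkk3 was at 113 CPM, Dkk2 at 88.9 CPM and Sfrp1 at 55.4 CPM, Sfrp2 and Sfrp4 were at 15.5 and 3.86 CPM, Wif1 and Frzb at 6.44 and 1.29 CPM, and Sostdc1 had no UMI. The TCF/LEF factor Lef1 was highest in Crabp1 follicle dermal-like FBs, at 459 CPM and in 68.9% of cells, the subtype with the most Dkk2, Wif1 and Frzb.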

How the data were processed

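Cells were dissociated from dorsal skin and sequenced with the 10x Genomics 3′ assay. The deposited files hold UMI counts per gene and barcode, not normalized, made by the authors with Cell Ranger (3.0.2 per the file headers and labels) on mm10. The study's limits on cells were applied (500 to 4000 genes, no more than 20000 UMIs, a mitochondrial share up to 5%), which left out 16900 barcodes over the mitochondrial limit. Gm42418, Gm17056 and Gm26917 were removed. No doublets were removed: Scrublet called 17 of 6150 cells (0.276%), too few to rely on. Libraries were integrated and clustered with Seurat 5.3.0 on 2000 variable genes (30 dimensions, resolution 1), without the inhibitors and the other listed Wnt genes, and clusters were named from marker lists (at least 3 markers).

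For each class, a library's cells were added up, and the sums went into the quasi-likelihood test of edgeR 4.0.16 under R 4.3.3 (TMM scaling, low counts removed by filterByExpr), with DESeq2 1.42.0 as an alternative. FB sums held 27 to 532 cells and 198068 to 4716901 UMIs, and KC and HF sums 23 to 883 cells and 225439 to 7799873 UMIs. The contractile follicle-like cluster, with more smooth muscle than epithelial markers among its leading genes, was left out of the KC and HF sums. The fits were tested on simulated data. The study's own test over cells was not used, as cells of a mouse are not replicates. The inhibitors were always named, with the 3 genes most like each over the subtypes, and of the other Wnt genes those with an unadjusted p below 0.05, the 2 with the most UMIs per role, Axin2 and Lef1. The inhibitors, gene lists and tests were chosen with earlier results of these data known. Alternatives were other tools, scalings and filters, each library left out, libraries 1 and 2 or 3 and 4 alone, a replicate block, a 10% mitochondrial limit, other cells left out and other minimum cell numbers.

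On GRCm38 (GENCODE gene models), Sfrp1 (ENSMUSG00000031548) lies at chr8:23411502-23449632, Sfrp2 (ENSMUSG00000027996) at chr3:83766321-83774316, Sfrp4 (ENSMUSG00000021319) at chr13:19623104-19632994, Frzb (ENSMUSG00000027004) at chr2:80411970-80447625, Dkk2 (ENSMUSG00000028031) at chr3:132085292-132180304, Dkk3 (ENSMUSG00000030772) at chr7:112116017-112159057, Wif1 (ENSMUSG00000020218) at chr10:121033960-121100650 and Sostdc1 (ENSMUSG00000036169) at chr12:36314139-36318452.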

Additional observations from a re-analysis of the deposited data

Results flagged for a closer look

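The 4 libraries of each treatment group were searched for the 7 inhibitors tested in FBs and for the 4 tested in KCs and HFs. In these groups, 3 values lay further from the other 3 libraries than Dixon's 95% critical value allows, a limit that chance alone passes in about 1 group in 20. Wif1 in KCs and HFs was at 28.8 CPM in PBMCsec library 3, against 6.31 to 7.42 CPM in the other PBMCsec libraries. Sostdc1 in FBs was at 81.4 CPM in PBMCsec library 4, against 1.66 to 14.99 CPM in the other PBMCsec libraries. Dkk3 in FBs was at 108.6 CPM in PBMCsec library 3, against 74.6 to 80.1 CPM in the others of its group.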

How the results depend on the processing

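Of 232 recomputed fold changes of the inhibitors, 202 kept their direction and their side of the adjusted threshold, 29 turned direction, none of them called, and 1 passed the threshold (Sfrp1 in Fn1 Ace FBs without the filter on low counts, adjusted p = 0.0048). In FBs, leaving out a library moved Sfrp1 between 1.14 and 2.16, Sfrp2 between −0.41 and 0.79, Sfrp4 between −0.52 and 0.21, Dkk3 between −0.13 and 0.35, Wif1 between −0.62 and 0.68 and Sostdc1 between −0.89 and 1.35. In KCs and HFs it moved Sfrp1 between −0.29 and 0.31, Sostdc1 between −0.17 and 0.17, Wif1 between 0.74 and 2.11, and Dkk3 between 0.49 and 0.76. It moved Dkk2 in FBs between −1.83 and −0.91 and the interaction of Sfrp1 between 0.74 and 2.06, of Dkk3 between −0.91 and −0.45 and of Wif1 between −2.51 and 0.15. With libraries 3 and 4 alone, FB values were −0.13 for Sfrp1, 0.39 for Sfrp4 and −0.16 for Dkk3. With libraries 1 and 2 alone they were 2.99 for Sfrp1 and −0.51 for Wif1, and Sostdc1 in KCs and HFs was −0.41. At a mitochondrial limit of 10% the FB values were −0.13 for Sfrp2, −0.038 for Dkk3, −0.15 for Wif1 and −1.65 for Sostdc1, and Sfrp1 in KCs and HFs was −0.018. Scaling to the library total gave −0.0071 for Dkk3 in FBs and −0.010 for Sostdc1 in KCs and HFs. The causes were not tested. Wif1 in KCs and HFs and Sostdc1 in FBs could not be fitted with libraries 1 and 2 alone, nor Sostdc1 in FBs without follicle dermal-like cells.

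Counts of called genes stayed at 0 in both classes under every setting run. Without the filter on low counts the interaction gave 14 calls, and the fits within Fn1 Ace, upper follicle-like, basal interfollicular-like and activated-like cells gave 38, 28, 23 and 7. Leaving out a library gave 0 to 3 calls for the interaction. The level in the leading subtype moved for Frzb (133 CPM at the 10% limit), Dkk2 (866 CPM with a minimum of 5 cells, 789 CPM at the 10% limit, 985 CPM with libraries pooled), Wif1 (2264 CPM with a minimum of 5 cells, 3029 CPM at the 10% limit) and Sostdc1 (915 CPM at the 10% limit). At that limit the leading subtype was Fn1 Ace FBs for Sfrp4 and Crabp1 follicle dermal-like FBs for Sostdc1. Clusters at that limit matched only 17 of the 21 subtypes, and Mgp Apod reticular-like and Cxcl12 Tnmd Lepr-like FBs shared a cluster. An alternative added after seeing the data repeated the clustering with another linear algebra kernel and gave 36 clusters in place of 37. Each inhibitor's leading level moved by less than 1 SD, but the cluster matching the Acta2 follicle dermal-like FBs (119 of its 183 cells) also took in melanocyte-like cells. The cluster matching the outer root sheath-like cells (252 of its 317 cells) took in other KCs and HFs. Of the bulge-like cells, 281 of 345 stayed in their matching cluster, and of the Mki67 Top2a cells 75 of 94. Pooled levels and the contractile cluster were likewise added later. Sums were smallest in vehicle libraries 1 and 2 for FBs and in vehicle library 1 and PBMCsec library 2 for KCs and HFs. Over all kept cells, the median of UMIs per cell was lowest in PBMCsec library 2 (6156). Among the summed cells it was lowest in vehicle library 2 for FBs (4987) and in vehicle library 3 for KCs and HFs (8715).

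Equal library numbers were not shown to pair the samples. The deviations of same-numbered libraries correlated at 0.211, −0.016, 0.096 and 0.241 in FBs and at 0.268, 0.073, −0.004 and 0.482 in KCs and HFs. With a replicate block, 0 genes were called in either class, Sfrp1 in FBs was 1.18 and Wif1 in FBs was −0.092.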

Other observations

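Outside FBs, KCs and HFs few UMIs of the inhibitors were found, but not all levels were low. In 64 melanocyte-like cells, at a median of 2455 UMIs, Dkk3 had 20 UMIs in 17.2% of cells and Sostdc1 16 UMIs in 6.25% of cells. With libraries pooled, Dkk3 was at 93.3 CPM in these cells, against 95.1 CPM in FBs and 31.8 CPM in KCs and HFs. Sostdc1 was at 74.6 CPM in them, against 17.5 CPM in FBs and 197 CPM in KCs and HFs. Dkk3 was also found in 4 of 38 pericytes and smooth muscle cells (10.5%), 7 of 87 type 2 innate lymphoid cells (8.05%) and 6 of 83 endothelial cells (7.23%), against 0.67% of TCs. A cluster of 61 cells with few UMIs and FB markers was left unnamed, and Sfrp2 was found in 47.5% and Sfrp4 in 42.6% of its cells.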
